A study of Mus musculus with 18 samples.

Results

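The response of mouse mammary epithelial organoids to estradiol was set against their response to Torin, gene by gene, to find the genes that both agents moved the same way and, above all, those that they moved in opposite directions. A gene entered when its symbol passed the low-count filter in both deposited count tables, which gave 13614 genes out of 15332 tested in the estradiol experiment and 18112 tested in the Torin experiment. Organoids were grown in EpiCult-B medium from mammary epithelial cells of nulliparous, wild-type C57BL/6 mice, and polyadenylated RNA was sequenced in 18 libraries, 3 in each of 6 groups. In the estradiol experiment, organoids of mice aged about 24 weeks were cultured for 12 days and given 10 nM estradiol or 96% ethanol as vehicle for 11 days. In the Torin experiment, organoids of mice aged about 15 weeks were cultured in Matrigel droplets for 18 days and given 100 nM Torin, named Torin 1 in the series design, or DMSO. It had 2 arms, D6 and D12, each with its own 3 DMSO and 3 Torin libraries. The titles attach 6 days of treatment to D6 and 12 days to D12, the series design attaches them the other way round, and the arm is also tagged as a batch, so no result here is read as an effect of time. The series design names 3 mice for the organoids without tying libraries to mice, so each p-value measures the spread between libraries, part of which may be technical.

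Estradiol binds the estrogen receptor, encoded by Esr1, which then acts as a transcription factor at target genes such as Pgr and Greb1 and, in the mammary gland, drives growth of the ductal epithelium largely through paracrine signals such as amphiregulin, the product of Areg. Torin 1 blocks the kinase mTOR in both of its complexes. Through the first complex, mTOR raises protein synthesis, ribosome production, glycolysis and lipid synthesis in response to nutrients and growth factors, and through the second it acts on AKT and the FOXO transcription factors.

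The epithelial markers Epcam, Krt8, Krt18, Krt5 and Krt14 were expressed in every library, whereas Ptprc, which marks leukocytes, stayed at or below 0.608 CPM, the unit used below, which scales each library's counts to a common total, adjusted by the trimmed mean of M values (TMM). The libraries held between 20637765 and 28910688 counts. The biological coefficient of variation was 5.23% in the estradiol experiment and 20.2% in the Torin experiment, so smaller changes could pass the test with estradiol than with Torin. Levels were not compared between the tables, and each effect is a log2 fold change against the experiment's own vehicle, given ± its standard error. The pooled Torin effect is the mean of the effects in the D6 and D12 arms. A gene is said to have risen or fallen where edgeR's quasi-likelihood test gave a Benjamini-Hochberg adjusted p under 0.05 over the whole table. The experiments share no library, vehicle or table.

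Among the 13614 genes, 35.4% changed with estradiol, 48.9% changed with Torin and 22.9%, or 3113 genes, changed with both. Of these 3113 genes, 2611 (83.9%) moved alike and 502 (16.1%) moved in opposite directions. Both agents raised 1355 genes, which is 9.95% of the genes tested in both, and both lowered 1256, or 9.23%. Estradiol raised and Torin lowered 313 genes, or 2.30%, and the reverse held for 189 genes, or 1.39%. The 313 genes make up 12.5% of the 2509 genes raised by estradiol and 9.17% of the 3413 genes lowered by Torin. The 189 genes make up 8.20% of the 2304 genes lowered by estradiol and 5.83% of the 3241 genes raised by Torin. Across the 13614 genes the effects correlated with a Pearson's r of 0.385 and a Spearman's rho of 0.385, given as a description because genes are not independent replicates. Without the low-count filter, Spearman's rho over all genes with a count was 0.138. Where a change of at least 2-fold was required in both experiments, 270 genes were left, of which 237 (87.8%) moved alike and 33 moved oppositely. These were 90 genes raised by both (0.661% of the genes tested in both), 147 lowered by both (1.08%), 23 raised by estradiol and lowered by Torin (0.169%) and 10 with the reverse pattern (0.0735%).

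**Figure D1:**
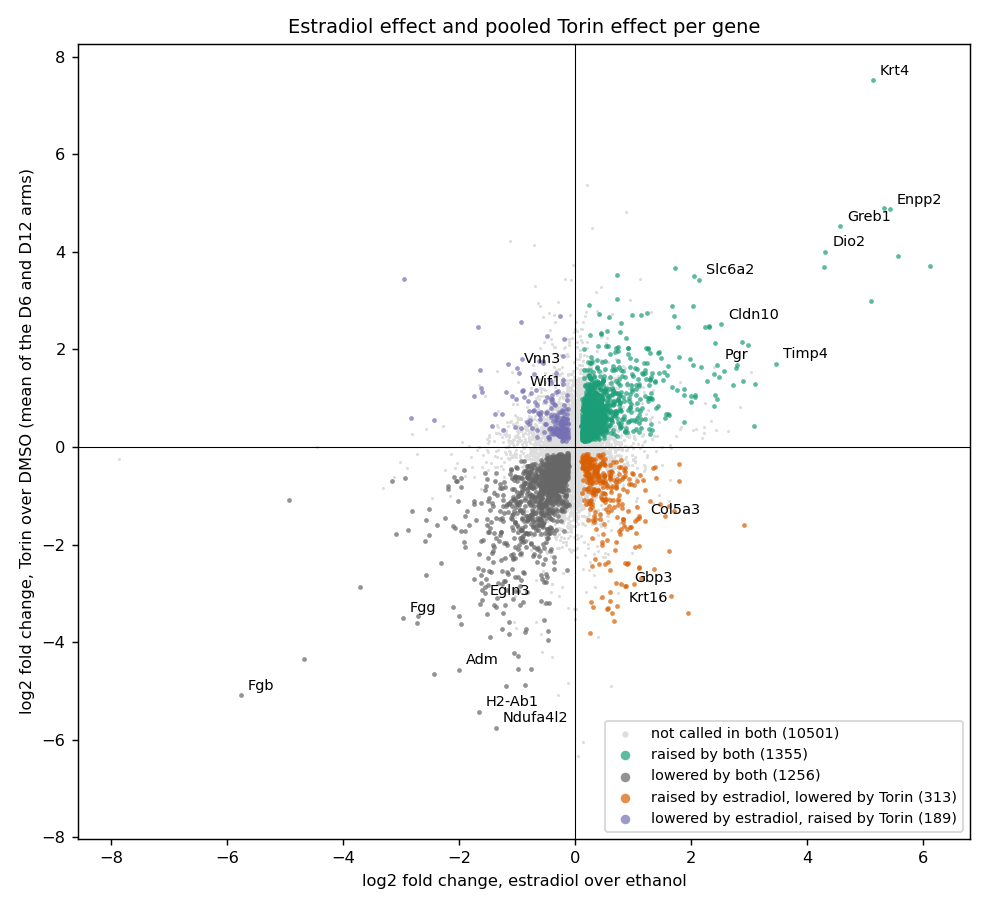
Log2 fold change with estradiol over ethanol (x axis) against the pooled log2 fold change with Torin over DMSO (y axis) for 13614 genes, coloured by the class of the 3113 genes called in both experiments. The lower right quadrant holds the 313 genes raised by estradiol and lowered by Torin, and the upper left holds the 189 genes with the reverse pattern.

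The class boundaries are set by the test. Among genes of at least 5 CPM in both tables, the oppositely moved gene closest inside the boundary was Erp29, a chaperone of the endoplasmic reticulum, at -0.12 ± 0.05 with estradiol (adjusted p = 0.0499) and 0.24 ± 0.06 with Torin. The nearest gene outside it was Cyp2f2, a cytochrome P450, at -0.37 ± 0.14 with estradiol (adjusted p = 0.05001) and 2.71 ± 0.08 with Torin. For genes moved alike, Ttc8 lay closest inside (0.27 ± 0.10 with estradiol) and Hyal2 closest outside (0.14 ± 0.05).

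Interferon-response genes formed the clearest group moved in opposite directions. Of 33 listed genes tested in both experiments, estradiol raised and Torin lowered 31, among them the signal transducer Stat2, the antiviral effectors Mx1, Oas3 and Ifit1, and the ubiquitin-like modifier Isg15. The list's median effect was 0.59 with estradiol and -1.90 with Torin, against 0.00 and 0.03 over all 13614 genes. Among those 13614 genes, 2.3% rose with estradiol and fell with Torin. Mx1, Oas3, Ifit1 and Isg15 fall outside the naming rule and were named after their values were seen. The 2 remaining genes, also named after their values were seen, were Irf1, an interferon-regulated transcription factor lowered by both (-0.20 and -0.64), and Ifi27, lowered by Torin (-1.30) with an estradiol effect of 0.04 that did not pass the test. Oas3 and the other genes of the families Oas, Ifit, Mx and Gbp have close relatives, and the sources used here do not state how reads shared between such genes were assigned.

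Type I interferons act through a transcription factor complex that includes the Stat2 and Irf9 proteins and binds the interferon-stimulated response element in promoters, whose core is written here as GAAANNGAAA. Promoter windows of 250 bases before the start site, from RefSeq on the build GRCm38.p6, were available for 21 of the 31 genes, and 11 of those 21 (52.4%) held these letters on either strand, against 318 of 10254 genes tested in both experiments (3.10%) and 3.46% of all promoters in the table. In the whole class raised by estradiol and lowered by Torin, 32 of 235 windows (13.6%) held them. A match is a description of the letters and not a measured binding site. The windows of 4 interferon genes that carry these letters are printed 5′ to 3′, with the letters in capitals. The 4 are those with the strongest tests in both experiments that had 1 window with a match, and Oas1a is named here for that reason alone. A match was thus required of them and is no result. Stat2 lies at chr10:128270248-128270497 on the plus strand, Oas1a at chr5:120907526-120907775 on the minus strand, Ifit1 at chr19:34640639-34640888 on the plus strand and Isg15 at chr4:156200819-156201068 on the minus strand.
Stat2: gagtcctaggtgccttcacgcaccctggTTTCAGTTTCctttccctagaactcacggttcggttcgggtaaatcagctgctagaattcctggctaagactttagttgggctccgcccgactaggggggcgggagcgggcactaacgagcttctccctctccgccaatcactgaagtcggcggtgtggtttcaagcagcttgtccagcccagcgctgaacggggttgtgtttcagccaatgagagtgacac
Oas1a: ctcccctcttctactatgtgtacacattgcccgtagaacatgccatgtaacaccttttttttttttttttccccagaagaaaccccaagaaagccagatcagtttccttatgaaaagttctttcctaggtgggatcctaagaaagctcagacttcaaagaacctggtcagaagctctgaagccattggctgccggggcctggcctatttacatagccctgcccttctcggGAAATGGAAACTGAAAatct
Ifit1: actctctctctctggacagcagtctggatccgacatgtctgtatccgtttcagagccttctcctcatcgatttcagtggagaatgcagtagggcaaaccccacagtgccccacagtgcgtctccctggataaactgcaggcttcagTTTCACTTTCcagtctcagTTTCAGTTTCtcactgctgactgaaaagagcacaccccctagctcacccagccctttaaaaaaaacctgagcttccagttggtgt
Isg15: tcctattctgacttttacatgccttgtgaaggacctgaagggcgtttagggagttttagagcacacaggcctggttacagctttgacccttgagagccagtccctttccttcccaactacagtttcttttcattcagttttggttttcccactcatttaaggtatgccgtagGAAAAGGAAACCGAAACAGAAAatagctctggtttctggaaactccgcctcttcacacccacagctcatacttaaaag

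Stat2, a transcription factor of type I interferon signalling, was measured at 46.0, 53.02 and 52.8 CPM in the ethanol libraries and 65.6, 82.5 and 77.1 CPM in the estradiol libraries. In the D6 arm it was at 57.0, 63.9 and 54.8 CPM with DMSO and 22.3, 21.7 and 16.9 CPM with Torin. In the D12 arm it was at 109.7, 58.9 and 55.8 CPM with DMSO and 33.0, 34.3 and 33.6 CPM with Torin. The groups do not overlap in the estradiol experiment or in either arm, and the first D12 DMSO library stands above the other D12 DMSO libraries. The effect was 0.57 ± 0.08 with estradiol (adjusted p = 3.39e-05) and -1.34 ± 0.15 with Torin (adjusted p = 2.66e-05). Gbp3, an interferon-induced GTPase, was at 24.8, 37.1 and 32.0 CPM with ethanol and 54.0, 55.2 and 64.4 CPM with estradiol. Its D6 levels were 40.9, 37.3 and 32.2 CPM with DMSO and 3.83, 2.37 and 5.01 CPM with Torin, and its D12 levels were 78.0, 37.6 and 27.4 and 9.62, 24.2 and 17.1 CPM. All 3 estradiol libraries exceeded all 3 ethanol libraries, and every Torin library lay below the DMSO libraries of its arm. The naming rule required this lack of overlap of Gbp3 and the other ranked genes of each class. Over all 13614 genes, 19.4% had no overlap in the estradiol experiment and in each arm. Ifit1, named after its values were seen because its promoter is printed above, rose from 42.8, 53.1 and 53.2 CPM with ethanol to 73.7, 97.6 and 99.7 CPM with estradiol. With Torin it stood at 2.27, 1.31 and 5.05 CPM in D6 against 55.1, 89.3 and 43.4 CPM with DMSO, and at 11.5, 43.4 and 49.5 CPM in D12 against 152, 53.7 and 44.4 CPM with DMSO, where the groups overlap.

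The first D12 DMSO library was high across the interferon list. On a log2 (CPM + 0.5) scale, its median member lay 0.68 above the mean of the D12 DMSO group, while the other D12 DMSO libraries lay at -0.17 and -0.49. The D12 Torin libraries lay at -1.48, -0.81 and -0.68, and the D6 Torin libraries at -2.28, -2.44 and -2.07 against D6 DMSO libraries between -0.18 and 0.12. Without the first D12 DMSO library the count of 31 opposite genes stayed at 31 and the median Torin effect was -1.65. With each library of either experiment left out in turn, the count ran from 28 to 31. In the arms taken alone, 32 of the 33 genes fell in D6, where 19.3% of all genes in the Torin table fell, and 23 fell in D12, where 14.6% fell, and 20 of the 31 opposite genes fell in each arm. The estradiol side is smaller in size: the estradiol libraries lay 0.45, 0.64 and 0.69 above the ethanol mean.

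Further named genes of this group kept the same signs in both arms. Dhx58, a regulator of the RIG-I-like RNA sensors, changed by 0.51 ± 0.06 with estradiol and -2.41 ± 0.20 with Torin. Rtp4, an interferon-induced chaperone of receptor transport, changed by 0.54 ± 0.06 and -1.90 ± 0.22, with a larger fall in D6 (-2.84) than in D12 (-0.95). Igtp and Ifi204, an interferon-induced GTPase and a member of the interferon-induced family of nucleic acid sensors, rose with estradiol (0.81 ± 0.08 and 0.77 ± 0.07) and fell with Torin (-1.17 ± 0.13 and -1.78 ± 0.17). Mill1, which encodes a protein related to MHC class I, rose from 13.7, 16.3 and 12.6 CPM with ethanol to 27.9, 26.2 and 26.0 CPM with estradiol, and fell from 10.5, 11.4 and 8.88 to 3.83, 2.78 and 4.06 CPM in D6 and from 13.5, 11.7 and 12.7 to 6.73, 5.38 and 5.77 CPM in D12.

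Antigen presentation was divided. Of 15 genes for MHC class I presentation and the immunoproteasome, Torin lowered 14, whereas estradiol raised 5 and lowered 2. Over all 13614 genes, Torin raised 23.8% and lowered 25.1%, and estradiol raised 18.4% and lowered 16.9%. The 5 opposite genes included the peptide transporter subunit Tap2 (0.36 ± 0.04 and -0.61 ± 0.06), the loading factor Tapbp (0.17 ± 0.04 and -0.58 ± 0.07) and the immunoproteasome subunit Psmb10 (0.22 ± 0.07 and -0.36 ± 0.09). The class I heavy chains H2-K1 and H2-D1, named after their values were seen, fell with both agents (-0.12 and -1.18; -0.11 and -1.19). The count of 5 was 2 without the first ethanol library or without the third estradiol library and 3 without the first estradiol library. The count of 2 lowered by both was 0 without the second or the third ethanol library or the first or second estradiol library, and 1 without the third estradiol library. In MHC class II, 5 of 10 listed genes were tested, and H2-Ab1, a class II beta chain, fell with both: from 11.3, 12.6 and 9.33 to 3.42, 3.78 and 3.34 CPM with estradiol, from 48.7, 70.7 and 51.7 to 0.543, 0.225 and 0.418 CPM in D6 and from 69.3, 58.9 and 67.8 to 4.30, 5.50 and 5.25 CPM in D12. H2-DMb1, which helps to load class II molecules, also fell with both (-0.40 ± 0.09 and -1.12 ± 0.06). Leukocyte markers were low throughout, the 17 of 18 found in the estradiol table summing to 2.87 to 4.59 CPM. In the Torin experiment the sums over all 18 were 7.04 to 13.0 CPM with DMSO and 2.00 to 3.15 CPM with Torin. Most of that difference was in the marker Cd68. Its means were 7.39 and 9.39 CPM with DMSO in D6 and D12, and 1.304 and 1.45 CPM with Torin. In D6, Ptprc was instead at 0.117 to 0.144 CPM with DMSO and 0.237 to 0.608 CPM with Torin. Only 2 of the 18 markers were tested in both experiments, so the sums do not show a general fall of leukocyte markers. The part of leukocytes in the falls of antigen presentation genes was not tested.

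Collagens and other matrix genes were the next group. Of 29 tested, estradiol raised 16 and Torin lowered 19, and 12 moved oppositely, 1 rose with both and 2 fell with both. Over all 13614 genes, estradiol raised 18.4%, Torin lowered 25.1%, and 2.3% rose with estradiol and fell with Torin. The median effect was 0.21 with estradiol and -0.70 with Torin. Col5a3, a fibrillar collagen chain, had the largest opposite effects under the naming rule: it rose from 12.0, 15.3 and 12.9 CPM with ethanol to 30.5, 27.7 and 28.5 CPM with estradiol. It was at 18.2, 22.5 and 23.04 CPM with DMSO and 6.78, 5.56 and 3.68 CPM with Torin in D6, and at 20.8, 19.6 and 20.2 and 8.52, 13.6 and 10.1 CPM in D12. No group overlaps its vehicle, as the naming rule required, and the effect was 1.105 ± 0.09 with estradiol and -1.45 ± 0.15 with Torin (adjusted p = 1.56e-07 and 1.33e-05). Col8a1, a short-chain collagen, changed by 0.90 ± 0.05 and -0.90 ± 0.10, and Cspg4, a cell-surface proteoglycan known from pericytes, by 0.82 ± 0.13 and -1.54 ± 0.16.

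The matrix genes differed between the Torin arms. Col1a1, a chain of collagen I, fell to 102, 91.0 and 84.2 CPM from 376, 342 and 505 CPM in D6 (-2.14 ± 0.16, adjusted p = 9.86e-07), and in D12 it was at 256, 319 and 326 CPM against 377, 375 and 461 CPM (-0.43 ± 0.15, adjusted p = 0.056). Its partner chain Col1a2 fell in D6 (-1.63 ± 0.14) and had a value above 0 in D12 (0.28 ± 0.14, adjusted p = 0.18). Col6a3, a chain of collagen VI, and Lum, a small proteoglycan, likewise fell in D6 (-2.09 ± 0.16 and -2.53 ± 0.30) and not in D12 (-0.27 ± 0.15 and -0.42 ± 0.28). Over the list, 24 genes fell in D6 and 11 in D12, where 21.8% and 17.1% of all genes tested in both fell. Of the 12 opposite genes, 4 fell in each arm. In the D12 arm alone the opposite count was 4, and without a term for the arm it was 6. Fibroblast markers moved with this group. The 15 markers, which include Col1a1, Col1a2, Col3a1 and Lum, summed to 273 to 308 CPM with ethanol and 393 to 466 CPM with estradiol. They summed to 925 to 1294 CPM with DMSO and 296 to 338 CPM with Torin in D6, and to 935 to 1085 and 766 to 1109 CPM in D12. Of the 13 tested, 4 moved oppositely, Pdgfra, named after its value was seen, fell with Torin (-1.49), and none stood at 0 in all libraries of a group. Over all 13614 genes, 2.3% moved oppositely in this direction. In bulk RNA, fewer cells of a type and less RNA per cell cannot be told apart, and the part of fibroblasts in the collagen result was not tested.

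Stress keratins of stratified epithelium also rose with estradiol and fell with Torin. Krt16 rose from 48.6, 56.1 and 40.8 CPM with ethanol to 85.9, 76.9 and 89.2 CPM with estradiol. It fell from 9.33, 12.8 and 6.68 to 2.04, 2.33 and 2.05 CPM in D6 and from 21.2, 19.5 and 25.0 to 1.52, 2.27 and 2.20 CPM in D12. Its partner Krt6a rose from 398, 447 and 359 to 757, 683 and 721 CPM with estradiol, and fell from 109, 125 and 76.4 to 46.4, 49.6 and 65.9 CPM in D6 and from 205, 178 and 243 to 35.9, 33.6 and 58.1 CPM in D12. None of these groups overlaps its vehicle, as the naming rule required of both genes. The Torin effect was larger in D12 for both genes (-3.45 and -2.29) than in D6 (-2.16 and -0.94). Krt14, the keratin of basal cells, changed by 0.24 ± 0.04 with estradiol and -0.65 ± 0.12 with Torin, and Krt19, a luminal keratin, by 0.32 ± 0.05 and -0.87 ± 0.16. The keratins Krt18, Krt8 and Krt5 did not share this pattern. Krt18 ran from 924 to 958 CPM with ethanol and from 814 to 835 CPM with estradiol. In D6 it ran from 2158 to 2690 CPM with DMSO and from 3780 to 4121 CPM with Torin. Its D12 levels were 2596 to 2823 CPM with DMSO and 2156 to 2313 CPM with Torin. Krt8 overlapped between ethanol (1311.9 to 1410.5 CPM) and estradiol (1302 to 1368.5 CPM). Krt5 ran from 3887 to 4079 CPM with ethanol and from 3706 to 3876 CPM with estradiol. Keratin genes of this kind have near copies, and the handling of shared reads is not given in the sources used here. Of 18 genes of squamous differentiation and the cornified envelope, 5 moved oppositely, 5 fell with both and 1, Krt4, rose with both. Over all 13614 genes the shares were 2.3%, 9.23% and 9.95%. In D6 alone, 2 of the 5 moved oppositely, and in D12 alone all 5 did. Krtdap, a keratinocyte differentiation product, fell with both (-0.95 ± 0.11 and -2.84 ± 0.26). The count of 5 lowered by both was 3 without the second ethanol or the third estradiol library and 2 without the second estradiol library.

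Several other epithelial genes had the same pattern. Serpinb2, an inhibitor of plasminogen activators, rose from 10.9, 13.7 and 11.7 to 25.3, 21.2 and 27.9 CPM with estradiol. With Torin it was at 21.0, 18.3 and 20.2 CPM in D6 against 50.2, 22.9 and 25.1 CPM with DMSO (-2.30 ± 0.33 in D12 against -0.72 ± 0.30 in D6), so its fall passed the test in D12 (adjusted p = 3.55e-04) and not in D6 (adjusted p = 0.081). Scin, an actin-severing protein, changed by 0.76 ± 0.07 and -0.98 ± 0.15. Itga2, an integrin subunit used as a luminal progenitor marker, changed by 0.39 ± 0.05 and -0.89 ± 0.09. Aldh1a3, another marker of those cells, rose with estradiol (0.31 ± 0.04), fell in D6 (-0.96 ± 0.08) and had a value of 0.17 ± 0.08 in D12. Itga2 and Aldh1a3 were the only 2 of 14 luminal progenitor markers raised by estradiol and lowered by pooled Torin, where 2.3% of all genes were. Of the others, 1 had the reverse pattern and 4 fell with both. Estradiol raised 5 of the 14 and lowered 8.

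Cell-cycle genes separated by phase. Torin lowered all 25 mitosis genes, with a median of -1.22, while estradiol raised 1 and lowered 1, where over all genes Torin lowered 25.1% and estradiol raised 18.4% and lowered 16.9%. The raised gene was Plk1, a mitotic kinase, at 26.3, 28.3 and 31.1 CPM with ethanol, 34.0, 33.4 and 35.3 CPM with estradiol, 28.5, 21.3 and 29.4 and 13.0, 11.2 and 10.4 CPM with DMSO and Torin in D6, and 25.3, 29.3 and 27.7 and 12.2, 10.3 and 9.55 CPM in D12. Cenpf, a kinetochore protein, fell with both (-0.23 ± 0.05 and -1.24 ± 0.10). Of 35 genes of S phase and DNA replication, estradiol raised 20 and lowered 2, and Torin raised 7 and lowered 8, where it raised 23.8% and lowered 25.1% of all genes. Within that list 7 rose with both, among them the helicase subunit Mcm2 (0.43 ± 0.05 and 0.82 ± 0.10) and the thymidylate synthase Tyms (0.47 ± 0.07 and 1.35 ± 0.07), 3 moved oppositely, among them the methylation factor Uhrf1 (0.29 ± 0.05 and -0.59 ± 0.07), and 1 fell with both, a call lost without any 1 of 5 libraries of the estradiol experiment. Among all 13614 genes, 9.95% rose with both, 2.3% rose with estradiol and fell with Torin, and 9.23% fell with both.

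**Figure D2:**
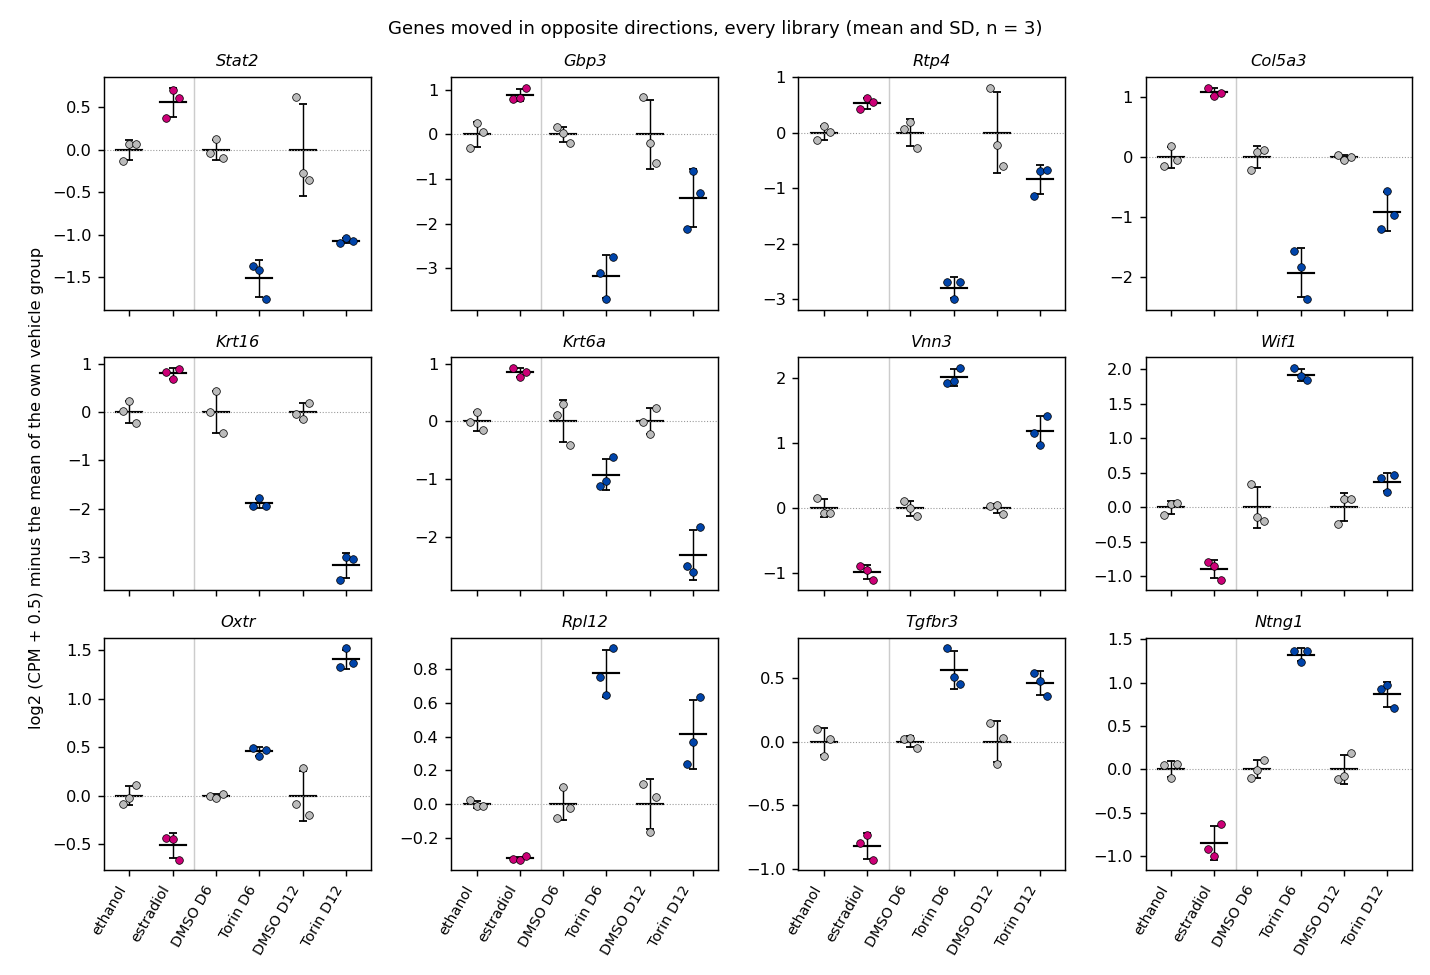
Level of 12 genes moved in opposite directions in every library, as log2 (CPM + 0.5) minus the mean of the library's own vehicle group, with the mean and SD of 3 libraries; grey points are vehicle, magenta estradiol and blue Torin. The estradiol points of Stat2, Gbp3, Rtp4, Col5a3, Krt16 and Krt6a lie above their vehicle and the Torin points below it, and Vnn3, Wif1, Oxtr, Rpl12, Tgfbr3 and Ntng1 show the reverse. Groups without overlap were required of the genes that the naming rule ranked.

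In the reverse class, lowered by estradiol and raised by Torin, ribosomal protein genes were the largest listed group, and their median Torin effect depended on the third Torin library of each arm. Estradiol lowered 77 of 78 ribosomal protein genes with a median effect of -0.32, and Torin raised 29 and lowered none at the threshold, with a median of 0.26. This gave 28 genes moved oppositely, for example Rpl12 (-0.32 ± 0.04 and 0.62 ± 0.09), Rplp1 (-0.24 ± 0.04 and 0.50 ± 0.07) and Rpsa (-0.25 ± 0.04 and 0.52 ± 0.06). Over all 13614 genes, estradiol lowered 16.9%, Torin raised 23.8% and 1.39% had this opposite pattern. The Torin rise was weak in D12. In D6, 22 of the 78 genes rose, where 19.8% of all genes in the Torin table rose. In D12, 9 of the 78 rose, where 10.8% rose. Of the 28 opposite genes, 6 rose in each arm. Over the 78 genes, the estradiol libraries lay 0.29, 0.37 and 0.30 below the ethanol mean. The D6 Torin libraries lay 0.25, 0.04 and 0.78 above the DMSO mean, and the D12 Torin libraries lay at -0.07, -0.09 and 0.46. In each arm the third library was thus well above the others. With the third Torin library of each arm left out, the median Torin effect was 0.05, and 23 genes rose and 8 fell, so that 22 moved oppositely and 8 fell with both. The opposite count was 17 without the first D6 DMSO library, 16 without the third D6 DMSO library, 15 without the third D12 DMSO library and 17 without the third D12 Torin library. At an adjusted p under 0.01 it was 12.

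The 3 named ribosomal protein genes did not depend on the third libraries. Rpl12, of the large subunit, was at 66.0, 64.4 and 64.4 CPM with ethanol and 51.8, 51.6 and 52.3 CPM with estradiol, at 12.7, 14.5 and 13.3 and 23.1, 21.4 and 26.1 CPM with DMSO and Torin in D6, and at 18.7, 15.2 and 17.7 and 20.3, 22.3 and 26.9 CPM in D12. Rpsa, of the small subunit, was at 1848, 1956 and 1909 CPM with ethanol, 1648, 1542 and 1611 CPM with estradiol, 205, 238 and 194 and 272, 289 and 334 CPM in D6 and 228, 219.8 and 227 and 319.7, 339.8 and 324 CPM in D12. For both genes every treated library lies beyond its vehicle group. Without the third Torin libraries their Torin effects were 0.52 and 0.48 (adjusted p = 1.09e-04 for Rpl12 and 4.15e-06 for Rpsa), and that of Rplp1 was 0.50. Ribosomal protein genes have many processed pseudogenes, and how reads shared with those were assigned is not given in the sources used here.

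Genes that build ribosomes, as opposed to those that form part of them, moved alike. Of 39 ribosome biogenesis genes, 30 rose with both agents, with a median effect of 0.25 with estradiol and 0.83 with Torin. Among all 13614 genes, 9.95% rose with both. Ddx21, a nucleolar RNA helicase, was at 102, 106 and 105 CPM with ethanol and 153, 149.9 and 150.0 CPM with estradiol, at 39.5, 32.2 and 35.8 and 98.4, 99.9 and 97.6 CPM in D6 and at 32.2, 34.1 and 32.7 and 64.4, 60.3 and 68.0 CPM in D12, with no overlap. Nop56, a core protein of box C/D particles, changed by 0.58 ± 0.05 and 1.04 ± 0.08, and Bop1, a factor for the large subunit, by 0.53 ± 0.05 and 1.12 ± 0.07. All 39 rose with Torin when the arms were pooled. In D6, 37 rose, where 19.8% of all genes in the Torin table rose, and in D12, 34 rose, where 10.8% rose. The exception in direction was Npm1, a nucleolar chaperone named after its values were seen, which fell with estradiol (-0.15 ± 0.05) and rose with Torin (0.68 ± 0.10), a call with estradiol that was lost without the second or the third ethanol or the second estradiol library. The third Torin libraries did not stand apart here: the list lay 0.90, 0.93 and 0.88 above DMSO in D6 and 0.58, 0.59 and 0.69 in D12, and 30 genes rose with both without them.

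Other named genes lowered by estradiol and raised by Torin have varied roles. Vnn3, of the vanin family of pantetheinases, had the largest opposite effects of this class under the naming rule. It was at 44.8, 38.1 and 38.0 CPM with ethanol and 21.5, 20.4 and 18.5 CPM with estradiol, at 43.6, 40.7 and 37.2 and 155, 158 and 182 CPM in D6 and at 38.7, 39.0 and 35.7 and 85.2, 74.5 and 102 CPM in D12. Estradiol thus lowered it by 1.00 and Torin raised it by 1.62 on the log2 scale (adjusted p = 1.51e-07 and 4.23e-08). Wif1, a secreted inhibitor of Wnt proteins, was at 45.2, 50.2 and 50.9 CPM with ethanol and 27.8, 26.8 and 23.3 CPM with estradiol. With Torin it rose to 84.6, 77.7 and 74.7 CPM from 26.1, 18.5 and 17.7 CPM in D6, and in D12 it was at 34.5, 29.9 and 35.5 CPM against 21.7, 27.8 and 27.7 CPM, a difference that did not pass the test (adjusted p = 0.095). Sostdc1, an antagonist of Wnt and BMP signals, changed by -0.41 ± 0.06 and 0.65 ± 0.09 with about equal effects in D6 (0.63) and D12 (0.66).

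Oxtr, the oxytocin receptor, through which myoepithelial cells contract at milk ejection, was at 29.1, 30.4 and 33.3 CPM with ethanol and 22.8, 22.6 and 19.4 CPM with estradiol. It rose from 31.1, 30.8 and 31.7 to 44.1, 41.5 and 43.3 CPM in D6 and from 22.3, 29.1 and 20.6 to 60.4, 68.9 and 62.2 CPM in D12. The groups do not overlap in any comparison, and the rise was larger in D12 (1.41 ± 0.12) than in D6 (0.46 ± 0.11). Of 20 basal myoepithelial markers, 3 had this pattern, Oxtr and the contractile genes Acta2 (-0.45 and 0.21) and Cnn1 (-0.71 and 0.75), which were named after their values were seen. Another 3 had the reverse pattern, including Krt14, and Mylk, the myosin light chain kinase, fell with both (-0.77 ± 0.08 and -0.80 ± 0.09). Over all 13614 genes, 1.39% had the pattern of Oxtr, 2.3% had the reverse and 9.23% fell with both. The summed level of the 20 markers ran from 10097 to 10688 CPM with ethanol and from 10474 to 10962 CPM with estradiol. It ran from 3454 to 4550 CPM with DMSO and from 2746 to 3461 CPM with Torin. Nexn, an actin-binding protein, changed by -0.49 ± 0.12 and 0.72 ± 0.09, and Myo5c, a myosin of secretory epithelia, by -0.49 ± 0.08 and 1.03 ± 0.12.

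Tgfbr3, a co-receptor for TGF-beta, fell from 82.8, 71.7 and 78.5 to 44.6, 46.4 and 40.6 CPM with estradiol and rose from 122, 123 and 116 to 199, 171 and 164 CPM in D6 and from 125, 101 and 116 to 165, 158 and 146 CPM in D12. Its effects in the arms were alike (0.57 and 0.45). Ntng1, a membrane-anchored netrin, changed by -0.91 ± 0.13 and 1.17 ± 0.10. Hunk, a kinase first described in the mammary gland, changed by -0.88 ± 0.09 and 1.02 ± 0.18; in D6 its Torin libraries were at 11.3, 13.4 and 25.5 CPM against 6.10, 6.84 and 7.29 CPM with DMSO, the third standing above the other two. Ptger4, a receptor for prostaglandin E, fell with estradiol (-0.62 ± 0.07) and rose in D6 (1.11 ± 0.13), with 0.23 ± 0.13 in D12 (adjusted p = 0.24). Plekhs1 rose with Torin (1.77 ± 0.12), and its fall with estradiol (-0.55 ± 0.16, adjusted p = 0.015) did not pass the test without the first ethanol, the first estradiol or the third estradiol library, where it lay between -0.50 and -0.40.

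Ltf, which encodes the milk protein lactoferrin, shows a limit of pooling the arms. It fell with estradiol, from 198, 164 and 150.3 CPM to 58.4, 61.7 and 70.6 CPM. In D6 it rose from 25.6, 26.3 and 27.1 CPM with DMSO to 184, 116 and 173 CPM with Torin, whereas in D12 it fell from 33.7, 30.1 and 29.6 to 8.06, 9.67 and 10.9 CPM. The pooled effect of 0.44 ± 0.11 is the mean of 2.58 ± 0.16 and -1.70 ± 0.16, so Ltf moved against estradiol in D6 and with it in D12.

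Over all 502 opposite genes, 182 passed the test in both arms with the same sign, 134 of the 313 and 48 of the 189. The arm effects had different signs in 32 of the 313 genes and 20 of the 189, and the effects of D6 and D12 differed by the test of the difference in 112 and 47 of them, or 159 in all. Of the 2611 genes moved alike, the effects of the arms differed in 628. Over the whole Torin table, which includes genes that Torin did not change, they differed in 10.6% of genes, 5.03% with the higher value in D12 and 5.55% with the higher value in D6. Among the genes given with values here that changed with pooled Torin, the effect did not pass in D12 alone for Acta2, Cnn1, Col8a1, Cspg4, Erp29, Hunk, Ifit1, Igfbp4, Plvap, Psmb10, Slc1a4 and Tmem238, nor in D6 alone for Dmp1, Il1a, Krt14 and Ttc8, besides those said so beside their values. The arms share no library, so a class chosen by estradiol and D6 can be read in D12. Of 280 genes raised by estradiol and lowered in D6, 134 (47.9%) fell in D12 and 18 rose, where 17.1% of all genes fell. Of 189 genes lowered by estradiol and raised in D6, 48 (25.4%) rose in D12 and 20 (10.6%) fell, where 12.4% of all genes rose. Read the other way, 134 of 258 genes (51.9%) raised by estradiol and lowered in D12 fell in D6 and 40 rose, and 48 of 96 genes lowered by estradiol and raised in D12 rose in D6 and 12 fell. Of the genes moved alike in D6, 634 of 1377 raised genes (46.0%) and 738 of 1143 lowered genes (64.6%) passed again in D12.

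**Figure D3:**
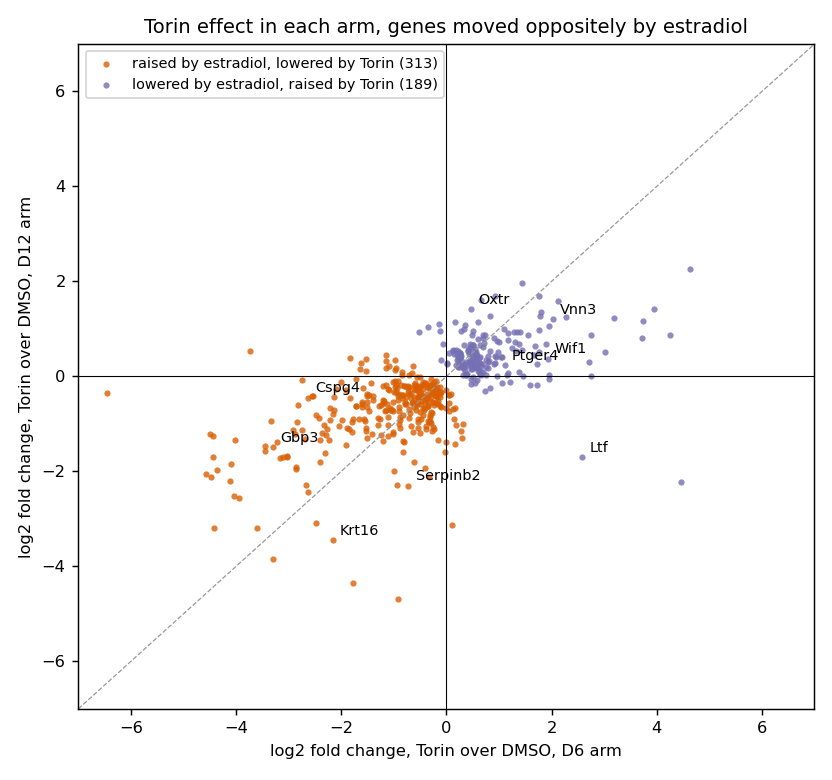
Log2 fold change with Torin over DMSO in the D6 arm (x axis) against the D12 arm (y axis) for the 313 and 189 genes that estradiol moved in the opposite direction; the dashed line marks equal effects. Most genes lie on the same side of 0 in both arms, 52 do not, and Ltf rose by 2.58 in D6 and fell by 1.70 in D12.

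Among genes moved alike, some rises had like values in both experiments and others did not. Enpp2, which encodes autotaxin, the secreted enzyme that makes lysophosphatidic acid, was at 4.33, 1.72 and 2.19 CPM with ethanol and 119.7, 118 and 116 CPM with estradiol. It was at 9.84, 6.89 and 3.83 CPM with DMSO and 199, 203 and 157 CPM with Torin in D6, and at 5.27, 5.81 and 5.48 and 175, 183 and 165 CPM in D12. All treated libraries exceed all of their vehicle libraries, as the naming rule required, and the effects were 5.42 ± 0.14 and 4.87 ± 0.19. Dio2, which encodes the type of deiodinase that makes active thyroid hormone, rose from 3.20, 3.53 and 4.18 to 71.4, 72.6 and 71.3 CPM with estradiol, from 1.71, 1.25 and 1.34 to 34.5, 37.2 and 31.7 CPM in D6 and from 0.589, 0.885 and 1.36 to 10.9, 8.42 and 11.2 CPM in D12. Cldn10, a claudin of tight junctions, changed by 2.50 ± 0.09 with estradiol and 2.52 ± 0.08 with Torin, with 2.52 and 2.53 in the arms. Slc6a2, the noradrenaline transporter, rose by 2.13 and 3.43, Padi2, a peptidylarginine deiminase, by 2.24 and 2.46, Khdrbs3, an RNA-binding splicing factor, by 1.99 and 1.80, and Timp4, an inhibitor of metalloproteinases, by 3.46 and 1.71. For Timp4 the rise passed in D12 (2.65 ± 0.34) and not in D6 (0.76 ± 0.33, adjusted p = 0.084).

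Classical estrogen targets were among these genes. Pgr, the progesterone receptor, was at 9.30, 8.23 and 10.6 CPM with ethanol and 55.2, 51.6 and 46.2 CPM with estradiol. In D6 it was at 4.78, 5.32 and 3.43 CPM with DMSO and 9.33, 9.80 and 15.8 CPM with Torin, and in D12 at 3.50, 3.29 and 2.94 and 12.3, 11.8 and 15.0 CPM. It rose in both experiments without overlap (2.45 ± 0.09 and 1.69 ± 0.16). Greb1, a cofactor and target of the estrogen receptor, was close to the detection limit in the vehicle groups. The 3 DMSO libraries held 5 counts in D6 and 7 in D12, against 171 and 130 with Torin, a ratio of 31.8 (95% exact interval 13.4 to 99.2) and 20.1 (9.50 to 51.1), which covers counting error only. With estradiol it rose from 0.216, 0.378 and 0.0486 to 6.52, 4.20 and 5.31 CPM. Esr1 itself, the estrogen receptor, fell with both: from 28.5, 27.0 and 29.7 to 15.8, 15.0 and 14.1 CPM with estradiol, from 91.0, 93.2 and 93.4 to 37.8, 38.6 and 41.6 CPM in D6 and from 84.0, 75.7 and 84.7 to 64.8, 59.5 and 46.7 CPM in D12. Areg, the amphiregulin gene, rose with estradiol from 25.8, 27.4 and 27.0 to 36.4, 37.0 and 36.3 CPM and in D6 from 9.99, 11.2 and 9.60 to 38.0, 38.8 and 51.0 CPM, while in D12 it was at 12.5, 11.8 and 13.5 CPM with DMSO and 9.74, 10.5 and 10.7 CPM with Torin (-0.29 ± 0.13, adjusted p = 0.13). Cited1, a co-regulator of the estrogen receptor, fell with both (-2.19 ± 0.15 and -0.85 ± 0.06). Of 24 genes of the estrogen response list, 7 rose with both, 4 fell with both and 2 moved oppositely, and the list as a whole had a median effect of -0.06 with estradiol and 0.43 with Torin. Over all 13614 genes, 9.95% rose with both, 9.23% fell with both and 1.39% fell with estradiol and rose with Torin. The opposite 2 were Ltf and Igfbp4 (-0.23 and 0.40), the latter named after its values were seen.

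Krt4, a keratin of mucosal epithelium, had 6 counts in all with ethanol and 215 with estradiol, 6 with DMSO and 1164 with Torin in D6, and 5 and 1065 in D12. The ratios were 38.8 (95% exact interval 17.5 to 107), 180 (82.7 to 493) and 231 (98.6 to 713). Pparg, a nuclear receptor listed among adipocyte markers, rose with both (1.09 ± 0.15 and 1.29 ± 0.19), while 9 of the 13 adipocyte markers, including Adipoq, Fabp4 and Plin1, did not pass the low-count filter in both tables. Ccnd1, which encodes cyclin D1, rose with estradiol (0.28 ± 0.03) and in D6 (0.86 ± 0.09) but not in D12 (0.04 ± 0.09, adjusted p = 0.8).

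**Figure D4:**
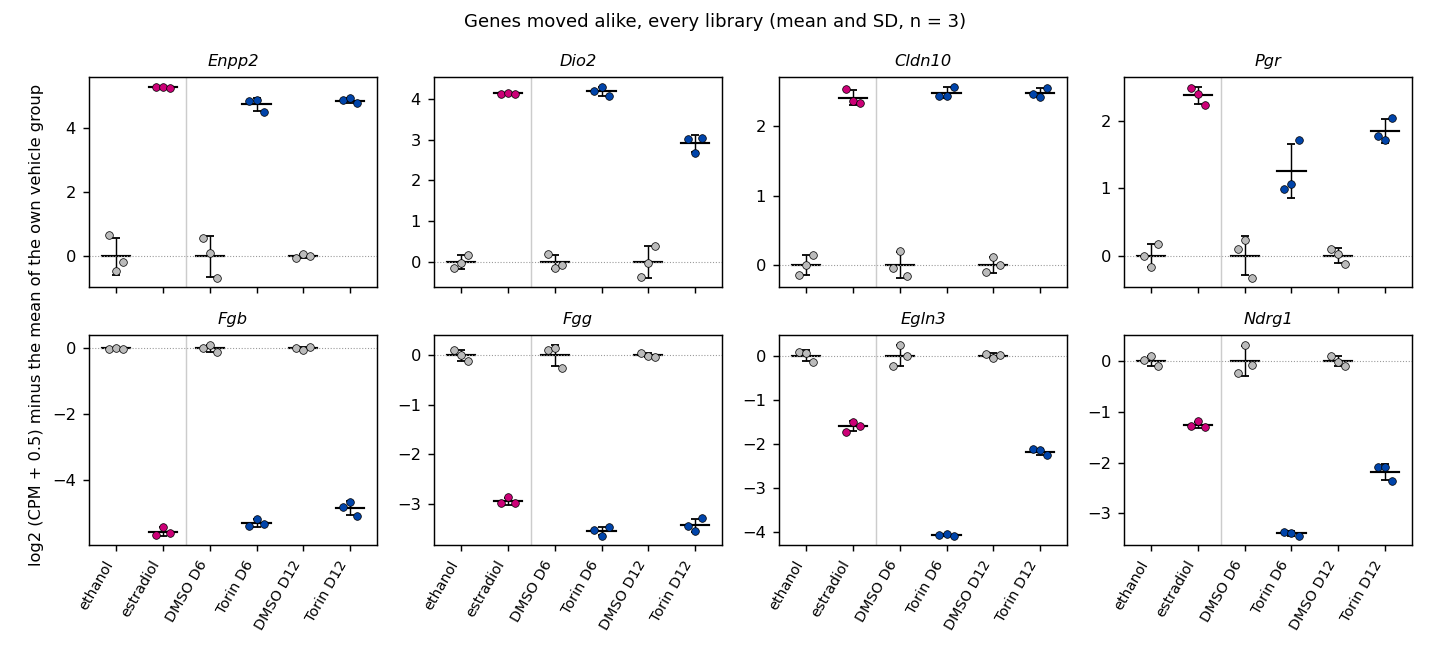
Level of 8 genes moved alike in every library, as log2 (CPM + 0.5) minus the mean of the library's own vehicle group, with the mean and SD of 3 libraries. Enpp2, Dio2, Cldn10 and Pgr lie above vehicle, and Fgb, Fgg, Egln3 and Ndrg1 below it, in all 9 treated libraries. Groups without overlap were required of the genes that the naming rule ranked.

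The largest shared falls were in 2 fibrinogen chains. Fgb was at 169, 172 and 169 CPM with ethanol and 2.88, 3.51 and 3.01 CPM with estradiol, at 931, 977 and 842 CPM with DMSO and 21.5, 25.0 and 22.1 CPM with Torin in D6, and at 832, 802 and 863 and 29.3, 32.7 and 24.2 CPM in D12. Its effects were -5.76 ± 0.07 and -5.09 ± 0.09 (adjusted p = 5.51e-17 and 2.09e-11). Fgg fell from 231, 214 and 196 to 26.3, 28.7 and 26.6 CPM with estradiol, to 90.8, 83.1 and 93.6 CPM from 1124, 1159.5 and 884 CPM in D6 and to 91.5, 85.3 and 102 CPM from 1037, 998 and 981 CPM in D12. Both encode parts of the clotting protein fibrinogen, and the treated and vehicle levels lie far apart in every comparison. The peptide ligands Apln (-2.11 ± 0.14 and -3.28 ± 0.17) and Adm (-2.01 ± 0.12 and -4.56 ± 0.20), the adenosine receptor gene Adora1 (-1.90 ± 0.11 and -2.05 ± 0.14), Masp1 of the lectin pathway of complement (-2.52 ± 0.11 and -1.80 ± 0.11) and Bhlha15, a transcription factor of secretory cells (-1.68 ± 0.11 and -2.48 ± 0.14), fell with both as well, as did Selenbp1, a selenium-binding protein (-1.96 ± 0.09 and -3.63 ± 0.13).

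Glycolysis and hypoxia-response genes fell together with both agents. Of 20 glycolysis genes, 18 fell with both, with a median of -0.40 with estradiol and -1.23 with Torin. The 2 others, named after their values were seen, were Hk1, which fell with Torin (-0.65) and had an estradiol effect of -0.10 that did not pass, and Mpi, which passed in neither. Of 19 hypoxia-response genes outside glycolysis, all 19 fell with both, with medians of -0.56 and -1.87. Among all 13614 genes, 9.23% fell with both. Gapdh, the glycolytic dehydrogenase, was at 3395, 3439.8 and 3322 CPM with ethanol and 2272, 2324 and 2402 CPM with estradiol, at 1457, 1899.5 and 1570.2 and 517, 505 and 615 CPM in D6 and at 2017, 1890.5 and 1797 and 665, 605 and 758 CPM in D12. Egln3, a prolyl hydroxylase that marks the hypoxia-inducible factors for degradation and is itself their target, was at 714, 708 and 611 CPM with ethanol and 205, 239 and 224 CPM with estradiol. It fell from 400.3, 561 and 467 to 27.6, 28.1 and 27.2 CPM in D6 and from 583, 543 and 577 to 129, 127 and 118 CPM in D12. Both genes fell in every comparison without overlap, and for Egln3 the fall was larger in D6 (-4.11) than in D12 (-2.18). Ndufa4l2, a mitochondrial protein induced by hypoxia, had the largest Torin fall under the naming rule (-5.75 ± 0.16), from 108, 136 and 107 to 0.339, 0.15 and 0.38 CPM in D6 and from 142, 125 and 147 to 20.2, 14.1 and 22.3 CPM in D12, beside an estradiol effect of -1.37 ± 0.06. Ndrg1 (-1.26 ± 0.05 and -2.81 ± 0.10), Aldoa (-0.51 ± 0.04 and -1.45 ± 0.07) and Pfkp (-0.67 ± 0.05 and -1.59 ± 0.06) were the other named members. The falls did not rest on 1 library: the estradiol libraries lay 0.49 to 0.61 below ethanol over the hypoxia list, the D6 Torin libraries 1.99 to 2.23 and the D12 Torin libraries 1.58 to 1.70 below DMSO.

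Hypoxia-inducible factors bind promoters and enhancers at elements with the core ACGTG. Of 37 glycolysis and hypoxia genes lowered by both, 33 had a promoter window, and 21 of the 33 (63.6%) held these letters on either strand, against 2521 of 10254 genes tested in both experiments (24.6%) and 18.5% of all promoters in the table. Over the whole class lowered by both the share was 26.9%, or 262 of 972. The shorter estrogen response element core, GGTCA, was found in 37.4% of the 10254 windows and in 37.5%, 39.5%, 41.3% and 33.6% of the genes raised by both, lowered by both, raised by estradiol and lowered by Torin, and the reverse. The full element GGTCANNNTGACC was found in 0 of the 10254 windows, and no statement about receptor binding follows from windows of 250 bases. The windows of 3 hypoxia genes are printed 5′ to 3′, chosen by the same rule as the interferon genes, with the core in capitals. Egln3 lies at chr12:54203875-54204124 on the minus strand, Car9 at chr4:43506776-43507025 on the plus strand and Bnip3 at chr7:138909507-138909756 on the minus strand, where the capitals cover a match on each strand.
Egln3: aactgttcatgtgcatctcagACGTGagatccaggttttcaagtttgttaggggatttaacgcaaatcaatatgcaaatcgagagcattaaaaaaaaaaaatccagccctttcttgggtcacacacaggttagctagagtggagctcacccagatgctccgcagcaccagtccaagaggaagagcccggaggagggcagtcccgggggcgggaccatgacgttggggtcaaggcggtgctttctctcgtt
Car9: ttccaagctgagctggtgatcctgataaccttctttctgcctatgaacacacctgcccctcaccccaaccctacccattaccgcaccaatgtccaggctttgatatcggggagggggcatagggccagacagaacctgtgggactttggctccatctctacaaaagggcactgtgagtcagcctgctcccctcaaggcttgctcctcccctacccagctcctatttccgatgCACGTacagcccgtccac
Bnip3: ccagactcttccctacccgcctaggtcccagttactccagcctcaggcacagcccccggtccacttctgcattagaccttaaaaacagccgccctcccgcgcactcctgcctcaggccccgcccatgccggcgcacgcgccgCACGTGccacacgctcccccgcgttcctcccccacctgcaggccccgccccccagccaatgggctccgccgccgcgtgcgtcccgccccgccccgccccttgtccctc

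Of these, Car9, a carbonic anhydrase, changed by -1.15 ± 0.05 and -3.59 ± 0.13, and Bnip3, a mitophagy receptor, by -0.95 ± 0.05 and -3.25 ± 0.13; both were named after their values were seen.

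**Figure D5:**
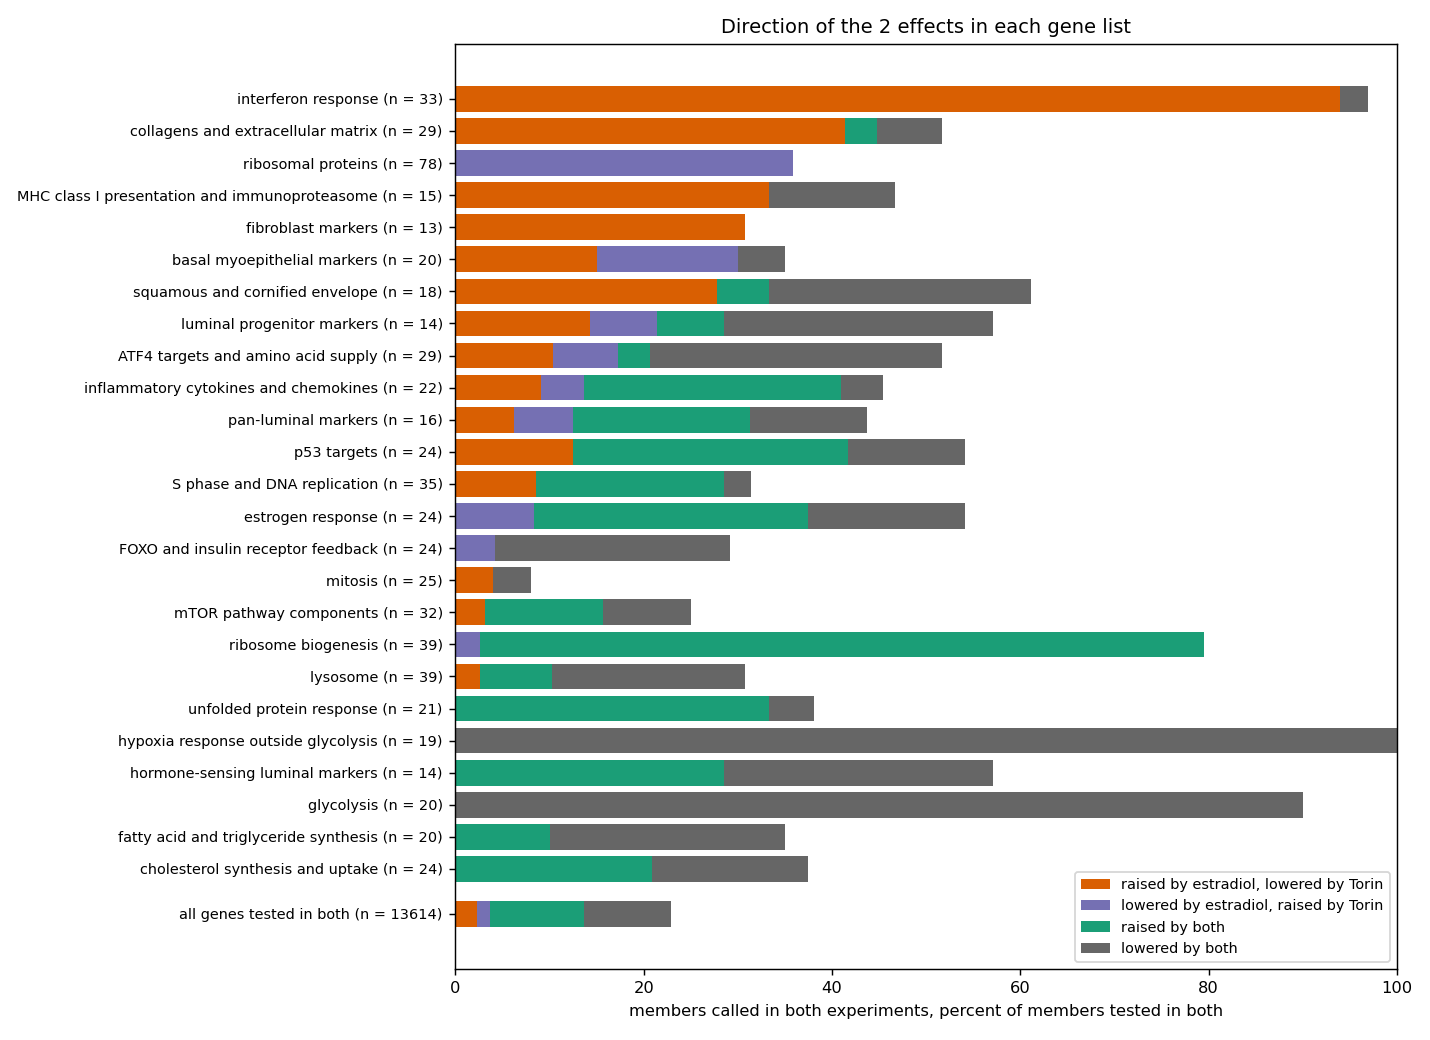
Share of each gene list that was called in both experiments, in percent of the members tested in both, split by the direction of both effects; the bottom bar gives the same over all 13614 genes. Interferon genes are nearly all in the class raised by estradiol and lowered by Torin, hypoxia and glycolysis genes in the class lowered by both, and ribosome biogenesis genes in the class raised by both.

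Other lists were mixed. The shares over all 13614 genes were 9.95% raised by both and 9.23% lowered by both. Another 2.3% rose with estradiol and fell with Torin, and 1.39% did the reverse. Of 32 mTOR pathway components, 4 rose with both, 3 fell with both and 1 moved oppositely, with medians of 0.01 and 0.08. These mTOR counts lie near the shares over all genes. The count of 4 was 2 without the first D6 DMSO, the first D12 DMSO, the third D6 Torin, the first D12 Torin or second D12 Torin library. Mtor itself had effects of 0.08 ± 0.05 and 0.16 ± 0.11 that did not pass (adjusted p = 0.24 and 0.26), but without the third Torin libraries its Torin effect was 0.28 and passed (adjusted p = 0.0023). The inhibitor Deptor fell with both (-0.37 ± 0.04 and -0.37 ± 0.06), as did Ddit4, which restrains mTOR under stress (-0.31 ± 0.04 and -1.52 ± 0.08), and Eif4ebp1, the translation repressor that mTOR phosphorylates (-0.28 ± 0.06 and -0.67 ± 0.07). The relative of Ddit4, Ddit4l, rose with estradiol and fell with Torin (0.52 ± 0.05 and -0.36 ± 0.06). The Torin fall of Deptor passed in D6 (-0.56) and not in D12 (-0.17, adjusted p = 0.18), and that of Ddit4l in D12 (-0.57) and not in D6 (-0.15, adjusted p = 0.16). Rragd, a lysosomal GTPase that signals amino acids to mTOR, rose with Torin (2.04 ± 0.18), more in D6 (3.25) than in D12 (0.83), and its estradiol effect of -0.61 ± 0.31 did not pass. Of 24 FOXO and insulin-receptor feedback genes, 6 fell with both, including the redox regulator Txnip (-0.87 ± 0.04 and -1.76 ± 0.10) and the PI3K inhibitor Pik3ip1 (-0.74 ± 0.05 and -1.28 ± 0.06). Irs2, an insulin receptor substrate, fell with estradiol (-0.63 ± 0.08) and had a Torin effect of -0.15 ± 0.12 that did not pass.

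The next lists stand beside the same shares over all 13614 genes, 9.95% raised by both and 9.23% lowered by both. The opposite shares were 2.3% raised by estradiol and lowered by Torin, and 1.39% with the reverse pattern. Of 29 ATF4 targets and amino acid supply genes, 9 fell with both, 1 rose with both and 5 moved oppositely. Phgdh, the entry enzyme of serine synthesis, rose with both (0.43 ± 0.05 and 1.19 ± 0.05), and Vldlr (-0.89 ± 0.06 and -1.28 ± 0.07) and the amino acid transporter Slc1a4 (-0.30 ± 0.04 and -0.65 ± 0.08) fell. Of 21 unfolded protein response genes, 7 rose with both, among them the chaperone genes Creld2 (0.49 ± 0.06 and 0.66 ± 0.06) and Dnajc3 (0.39 ± 0.04 and 0.50 ± 0.06), and Xbp1, a transcription factor of this response, fell with both (-0.78 ± 0.05 and -1.19 ± 0.06). The count of 7 was 4 without the first or the third D6 DMSO library or the first or second D12 DMSO library. Of 39 lysosome genes, 8 fell with both, such as the acid lipase Lipa (-0.41 ± 0.05 and -1.65 ± 0.08) and the saposin precursor Psap (-0.28 ± 0.04 and -0.74 ± 0.06), 3 rose with both and 1 moved oppositely. Torin raised and lowered 10 each of the lysosome genes in D6, and raised 1 and lowered 20 in D12. Of 24 cholesterol genes, 5 rose and 4 fell with both and none moved oppositely, and Sc5d, a desaturase of cholesterol synthesis, was among those that fell (-0.29 ± 0.04 and -0.65 ± 0.05). The pooled counts hide a difference between the arms, since 12 cholesterol genes rose and 5 fell in D6 (median 0.27) and 2 rose and 11 fell in D12 (median -0.27). Of 20 fatty acid genes, 5 fell with both, such as the acetyl-CoA synthetase Acss2 (-0.44 ± 0.07 and -1.65 ± 0.07) and the desaturase Fads1 (-0.31 ± 0.04 and -0.88 ± 0.04), and 2 rose.

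For the remaining lists, too, the shares over all 13614 genes were 9.95% raised by both and 9.23% lowered by both. Estradiol raised and Torin lowered 2.3%, and 1.39% had the reverse pattern. Of 22 inflammatory cytokines and chemokines, 6 rose with both, 1 fell with both and 3 moved oppositely. Cxcl15 (1.67 ± 0.09 and 1.22 ± 0.07), Cxcl16 (0.66 ± 0.05 and 0.92 ± 0.08) and the cytokine Lif (0.73 ± 0.05 and 1.12 ± 0.10) rose, the last 2 with Torin in D6 (1.71 and 2.12) and not in D12 (0.12 and 0.12). The opposite genes, named after their values were seen, were Il1a (1.64 and -3.06), Ccl7 (0.79 and -1.69) and Cxcl5 (-0.20 and 2.21). Of the 2 raised by estradiol, 1 passed without the second ethanol or first estradiol library, and Cxcl5 did not pass without the first ethanol or the first or second estradiol library. Of 24 p53 targets, 7 rose with both, such as Bax (0.28 ± 0.04 and 0.86 ± 0.06) and Aen (0.49 ± 0.05 and 0.68 ± 0.08), 3 fell with both, such as Btg2 (-0.49 ± 0.06 and -0.62 ± 0.07), and 3 moved oppositely, a count that was 1 without the third ethanol or first estradiol library. The arms went different ways for this list: 13 rose and 1 fell in D6 (median 0.42), and 1 rose and 12 fell in D12 (median -0.25). The rise of Aen did not pass in D12 (0.17, adjusted p = 0.28), nor did the fall of Btg2 in D6 (-0.16, adjusted p = 0.21). Of 14 hormone-sensing luminal markers, 4 rose with both and 4 fell with both. Of 16 pan-luminal markers, 3 rose with both, 2 fell with both and 2 moved oppositely, while Torin raised 8 and lowered 4 in D6 and raised none and lowered 7 in D12. Of 14 luminal progenitor markers, 4 fell with both, 1 rose with both and 3 moved oppositely, and of 6 endothelial markers tested, 1, Plvap, fell with both (-1.36 ± 0.25 and -0.53 ± 0.11), with a D12 value above 0 (0.45).

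Reading the large changes of 1 experiment in the other gave the same picture. Of 222 genes raised at least 2-fold by estradiol, Torin raised 123 (55.4%) and lowered 33 (14.9%), against 23.8% raised and 25.1% lowered over all genes. Of 299 genes lowered at least 2-fold by estradiol, Torin lowered 184 (61.5%) and raised 18 (6.02%). Of 584 genes raised at least 2-fold by Torin, estradiol raised 273 (46.7%) and lowered 36 (6.16%), against 18.4% and 16.9% over all genes. Of 959 genes lowered at least 2-fold by Torin, estradiol lowered 425 (44.3%) and raised 104 (10.8%).

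Some of the largest effects in 1 experiment were smaller in the other, though several still reached 2-fold there. Dmp1, a matrix phosphoprotein of bone and dentin, rose by 3.09 with estradiol and by 0.42 with Torin, and the latter did not pass without any 1 of 5 Torin-experiment libraries, the first and the third D6 DMSO, the second and the third D12 DMSO and the second D12 Torin library. The homeobox gene Msx2 rose by 3.10 and 1.29, and Gpx3, a secreted glutathione peroxidase, by 2.56 and 1.56. Aldh1a1, a retinaldehyde dehydrogenase, fell by 2.92 with estradiol and 0.64 with Torin, and Bpifb1 and Olfm1 fell by 2.58 and 2.81 with estradiol and 1.50 and 1.32 with Torin. In the other direction, Prss35, a secreted protease-like protein, fell by 4.28 with Torin and 0.98 with estradiol, and Mgarp, a mitochondrial protein, by 4.56 and 0.77. Tnfrsf11b, the decoy receptor osteoprotegerin, rose by 2.89 with Torin and 1.67 with estradiol. Foxq1, a forkhead transcription factor, rose with Torin (2.77 ± 0.45), with an estradiol effect of 0.19 ± 0.08 that did not pass. Its D6 Torin libraries were at 7.33, 5.78 and 37.8 CPM against 0.894, 1.12 and 1.05 CPM with DMSO, the third far above the others; the pooled value was 2.15 without the third Torin libraries, and the D12 value of 1.48 did not pass (adjusted p = 0.1). Tmem238 rose with Torin (2.92 ± 0.70), a value that was 1.55 without the third Torin libraries.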

How the data were processed

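For the estradiol experiment the authors deposited a table of estimated counts per gene, 68.8% of whose values above 0 are not whole, and these were rounded here. The Torin table, as deposited, holds whole counts, 1 row per gene symbol. They also deposited normalized values for both, a signal scale made with DESeq2 according to the file names, which entered 1 alternative only. Per the submitters' processing notes, the build was GRCm39 and the tools included kallisto and DESeq2, with cutadapt and Trim Galore among the others named; versions are not given in the sources used here. How shared reads were assigned is not given in the sources used here. All count columns were matched to samples by name.

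Each table was fitted by itself with edgeR 4.0.16 in R 4.3.3 (filterByExpr, TMM scaling, group means, quasi-likelihood F test, Benjamini-Hochberg adjustment over the whole table). The pooled Torin effect is the mean of the effects within the arms. The standard error is the effect divided by the square root of F. Genes were joined by identical symbol, 44694 symbols occurring in both tables, after summing the estradiol features of 116 symbols. The fits were tested on simulated data. Counts are limited by sequencing depth and by 3 libraries per group, and intervals on single counts cover counting error only.

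Genes are named by a rule: the 12 genes of each opposite class and the 8 of each alike class with the largest smaller effect, up to 3 per list, the largest changes in 1 experiment and a set of genes named for their role, with means of at least 5 CPM where the rule ranks. The ranked genes of each class also had to have groups without overlap in the estradiol experiment and in each arm. For these genes, lack of overlap is therefore no result. The largest changes in 1 experiment had to show it in that experiment. Some genes that the rule names are not reported here. Genes named outside this rule, other than marker genes, class boundaries and background, are marked as chosen after their values were seen. The members and the 29 lists were chosen with earlier results of these data known. Replicate numbers were not taken to pair libraries, as no set of same-numbered libraries correlated above 0.1 in every pair: deviations of estradiol and ethanol libraries correlated at -0.109, -0.046 and -0.101, those of DMSO and Torin at 0.074, -0.060 and 0.067 in D6 and -0.165, -0.276 and -0.449 in D12, and those of the Torin libraries of both arms at 0.075, 0.086 and 0.156. Alternatives were DESeq2 1.42.0, limma 3.58.1, other filters, thresholds and scalings, each arm alone, a replicate block and leaving out each of the 18 libraries.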

Additional observations from a re-analysis of the deposited data

Results flagged for a closer look

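The Torin effects of the D6 and D12 arms were set against each other by edgeR's quasi-likelihood test of their difference for 140 of the genes described above. Of these, 67 differed at an adjusted p under 0.05, where 10.6% of the whole Torin table did. Among genes called in both experiments, 628 of the 2611 moved alike and 159 of the 502 moved oppositely differed. In 53 of the 67 both effects had the same sign and the D6 effect was the larger, in 9 the D12 effect was the larger, and in 5 the signs differed. Each value below is the log2 effect in D12 minus that in D6. The arm is also tagged as a batch, and no explanation for the differences was tested.

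The 5 genes whose arms went different ways were the lactoferrin gene Ltf (-4.28), the amphiregulin gene Areg (-2.34), Col1a2 (1.91), Aldh1a3 (1.13) and Plvap (1.95). Only for Ltf did each arm pass the test by itself, so the pooled value of these genes describes neither arm well.

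Among genes raised by estradiol and lowered by Torin, the fall was larger in D6 for the interferon genes Ifit1 (3.19), Rtp4 (1.89) and Igtp (1.102), for Tap2 (0.43), for the chemokine Ccl7 (1.16) and for the matrix genes Col1a1 (1.71), Col5a3 (1.07), Col6a3 (1.82), Col8a1 (0.99), Cspg4 (2.17) and Lum (2.12). The fibroblast marker Pdgfra, which estradiol did not change at the threshold, differed in the same way (1.64). The fall was larger in D12 for Krt16 (-1.29), Krt6a (-1.35), Serpinb2 (-1.58) and Ddit4l (-0.42).

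Among genes lowered by estradiol and raised by Torin, the rise was larger in D6 for Wif1 (-1.56), Plekhs1 (-1.01), Ptger4 (-0.88), Vnn3 (-0.82), Cxcl5 (-1.96) and Igfbp4 (-0.73), and larger in D12 for Oxtr (0.95). Cyp2f2 and Rragd, raised by Torin with an estradiol value under 0 that did not pass, differed by -3.28 and -2.42.

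Among genes raised by both, the D6 effect was larger for Dio2 (-1.16), Gpx3 (-1.68), Tnfrsf11b (-1.81), Phgdh (-1.22), Lif (-2.0), Cxcl16 (-1.59), Ccnd1 (-0.82), Aen (-1.01), Bax (-0.46), Tyms (-0.56), Ddx21 (-0.50) and Nop56 (-0.67), and the D12 effect was larger for Timp4 (1.89).

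Among genes lowered by both, the D6 fall was larger for the hypoxia-response genes Ndufa4l2 (5.76), Car9 (2.05), Egln3 (1.92), Bnip3 (1.75) and Ndrg1 (1.25) and for Mgarp (4.41). It was also larger for H2-Ab1 (3.44), H2-DMb1 (0.68), Apln (1.48), Adora1 (1.17), Selenbp1 (1.03), Bpifb1 (0.92), Cited1 (0.99), Esr1 (0.72), Xbp1 (0.57) and Mylk (0.66). The metabolic and amino acid genes Fads1 (0.98), Acss2 (0.88), Txnip (0.77), Vldlr (0.77) and Slc1a4 (0.61) followed the same order, and the fall was larger in D12 for Ddit4 (-1.02), Btg2 (-0.92) and Sc5d (-0.48).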

How the results depend on the processing

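The counts of genes, in the order raised by estradiol and lowered by Torin, the reverse, raised by both and lowered by both, were 313, 189, 1355 and 1256. Leaving out each library in turn gave 261 to 338, 149 to 224, 1110 to 1418 and 1044 to 1358, and a share moved alike of 83.0% to 84.7%. At an adjusted p under 0.01 they were 179, 86, 776 and 814 (85.7% alike), and at 2-fold or more in both 23, 10, 90 and 147 (87.8% alike). Requiring a call in each arm gave 134, 48, 634 and 738 (88.3% alike), and the D12 arm alone gave 96 of the reverse pattern and 749 raised by both (82.3% alike). limma on the deposited normalized values gave 111 of the reverse pattern and 900 raised by both, and a fit without a term for the arm gave 85.4% alike. With a replicate block the counts were 285, 159, 1193 and 1161, within 1.5 times of those without it.

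Spearman's rho of 0.385 was 0.359 to 0.400 without single libraries, 0.138 without the low-count filter, 0.419 with a stricter filter, 0.315 with D12 alone, 0.364 with limma, 0.401 with only the symbols given in the files and 0.394 without the third Torin libraries.

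Of genes raised at least 2-fold by estradiol, Torin raised 51.5% to 57.6% without single libraries, 43.1% without the filter, 41.0% with D12 alone and 30.6% with a call in each arm required. Of those lowered, Torin lowered 54.8% to 63.9%, 49.5% without the filter, 67.6% with the stricter filter, 54.5% without an arm term, 53.2% with D6 alone, 46.5% with D12 alone and 38.1% with a call in each arm required. Of genes raised at least 2-fold by Torin, estradiol raised 38.8% to 49.6%, and by setting 41.3% (DESeq2), 32.4% (no filter), 52.7% (stricter filter), 42.1% (p under 0.01), 39.3% (limma) and 58.9% (each arm). Of those lowered, estradiol lowered 39.1% to 44.9%, 39.4% (DESeq2), 33.5% (no filter), 50.4% (stricter filter), 38.0% (p under 0.01), 38.1% (limma) and 49.5% (each arm).

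Of opposite genes chosen with D6, 38.8% passed the same way in D12, 31.4% to 47.9% without single libraries, 33.2% at p under 0.01, 26.8% at 2-fold and 48.3% without the third Torin libraries. For alike genes the share was 54.4%, with 45.6% to 63.7%, 57.3% (DESeq2), 51.0% (no filter), 67.9% (2-fold) and 62.7% (without the third libraries). Chosen with D12 and read in D6, the shares were 51.4% and 83.3%, with 45.6% to 56.8% and 77.5% to 86.0%, 44.5% and 80.4% without the third libraries, and 80.5% for alike genes without the filter.

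In the D12 arm alone the Torin values of Aldh1a3 (0.17), Areg (-0.29), Col1a2 (0.28), Ltf (-1.70), Plvap (0.45) and Pnpla2 (-0.071) had the other sign, as they average with D6 in the pooled value. The other single-gene values were counted once per value and setting. In settings other than leaving out a single library, 4051 kept their direction and side of the threshold. Another 196 kept their direction without passing, among them those held to a 2-fold change. Besides these, 1 passed only in the alternative, and 2 that passed in neither fit changed sign. With single libraries left out, 4761 kept both, 25 no longer passed and 2 passed only there. The cause of the shifts was not tested unless stated. With a library left out, the spread is still pooled over all groups of its table.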
